A study of Gallus gallus with 4 samples.

Results

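Melanocyte-lineage cells were the barcodes of 4 droplet libraries of embryonic chicken feathers that carried transcripts of pigment-cell genes. A barcode, which stands for 1 cell or nucleus, first had to show at least 300 genes, at most 10% mitochondrial unique molecular identifiers (UMIs, which count transcripts once) and under 10% globin UMIs. It was then a member if it held at least 3 UMIs from at least 2 of PMEL, MLANA, TYR, TYRP1, DCT, EDNRB2 and TRPM1, called the rule genes here. This gave 255 members, 65 cells and 190 nuclei, among 18375 barcodes within the limits (gated barcodes, 1.39%) and 67513 deposited ones. The values of the rule genes chose the members, so these genes are described and support nothing.

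The feathers were taken along the midline of the back of embryos of the white leghorn breed, and each group was 1 library. Plucked feathers of day 12 (Hamburger and Hamilton stage 38) and feathers still embedded in a strip of epidermis of the same day were digested with Pronase into cells. Plucked feathers of day 13 (stage 39) and day 14 (stage 40) were homogenised into nuclei. The labels do not give the number or sex of the embryos in a library. With 1 library per group no test is possible, and every comparison describes these libraries. Intervals are exact 95% limits that cover counting error only.

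Melanocytes arise from the neural crest, enter the skin and the feather germ as melanoblasts, and make melanin in melanosomes that they pass to keratinocytes. Tyrosinase (TYR) and the related enzymes TYRP1 and DCT make the pigment, PMEL builds the fibrils on which it is laid down, and MLANA is a melanosome protein. In birds the endothelin receptor EDNRB2 guides melanoblasts, and TRPM1 is an ion channel of melanocytes. White leghorns are known to carry the Dominant white allele of PMEL, which leaves the plumage unpigmented. No genotype was examined here.

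Plucked feathers of day 12 held 36 members of 5957 gated barcodes, or 0.604% (0.424 to 0.836). Feathers in skin held 29 of 5172, or 0.561% (0.376 to 0.804). The nuclei gave 134 of 2924 on day 13, or 4.58% (3.85 to 5.40), and 56 of 4322 on day 14, or 1.30% (0.980 to 1.68). Members of day 13 had a median of 10283.5 UMIs against 3603 in the other gated barcodes, and a fixed minimum of 3 UMIs favours deep barcodes. When every barcode was thinned to 1000 UMIs, the shares were 0.337% (18 of 5343) and 0.347% (17 of 4896) in plucked and in-skin cells, 0.960% (28 of 2918) on day 13 and 0.719% (31 of 4312) on day 14. Thinning left out 614, 276, 6 and 10 barcodes with fewer UMIs. The intervals of the day 14 and day 13 shares overlapped after thinning, from 0.489 to 1.02% on day 14 and from 0.639 to 1.38% on day 13. The globin limit also set these shares, since 272 further barcodes of day 13 and 63 of day 14 met the pigment rule but not the gate, 254 and 60 of them for globin.

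The members were not one uniform group. A median member held 24 rule-gene UMIs in plucked cells, 63 in in-skin cells, 6 in day 13 nuclei and 24.5 in day 14 nuclei, while the highest held 660, 1866, 125 and 128. At the edge of the rule, 3, 5, 39 and 10 members had exactly 3 UMIs, and 15, 20, 115 and 44 barcodes just outside had 2 UMIs from 2 genes. The members were therefore divided, after these values were seen, at 20 rule-gene UMIs that also made up at least 2 per 1000 of the barcode's UMIs. Those above both lines, called pigment-rich, numbered 18 and 19 cells and 28 and 29 nuclei, 94 in all. The other 161, called sparse, numbered 18 and 10 cells and 106 and 27 nuclei.

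**Figure D1:**
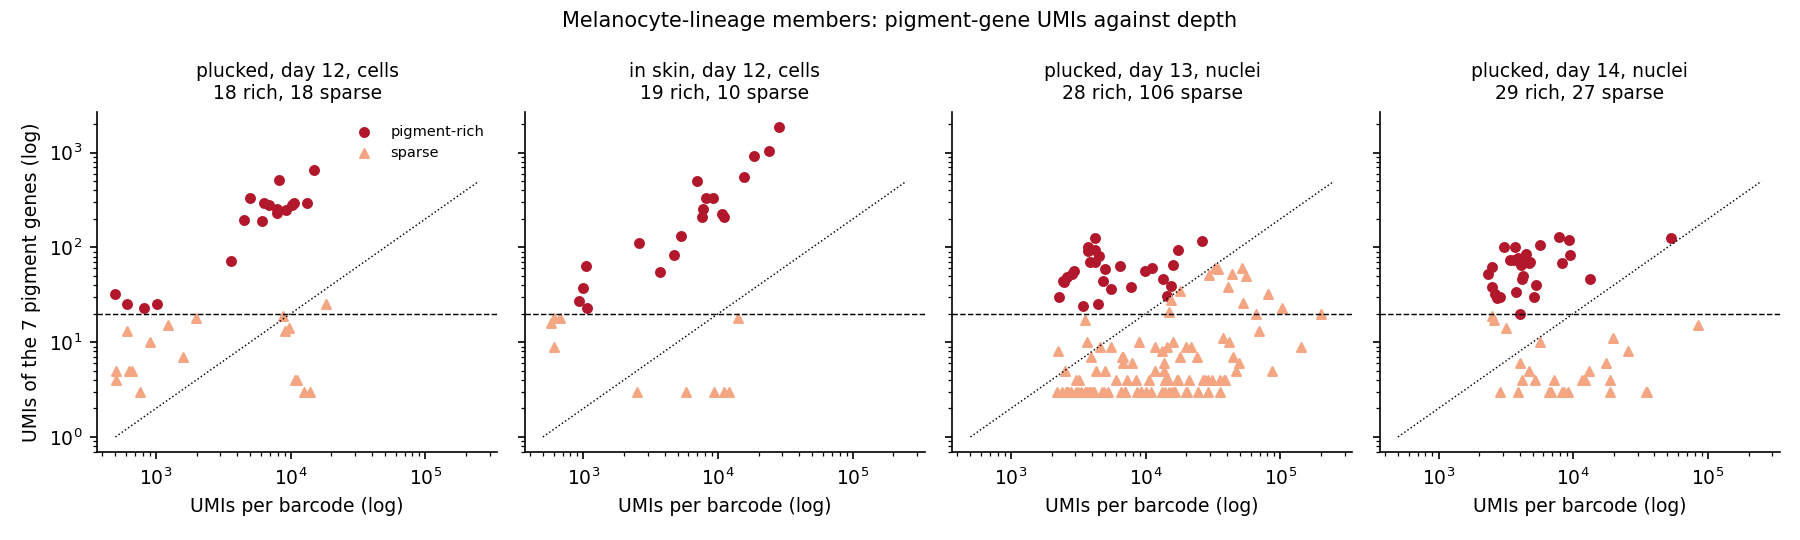
Rule-gene UMIs of each member (y axis, log scale) against all its UMIs (x axis, log scale), with 1 panel per library. Red circles are pigment-rich members, orange triangles sparse ones, the dashed line is 20 UMIs and the dotted line 2 per 1000; 106 of the 134 day 13 members are sparse.

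Pigment-rich members made up 0.302% of gated plucked cells (0.179 to 0.477), 0.367% of in-skin cells (0.221 to 0.573), 0.958% of day 13 nuclei (0.637 to 1.38) and 0.671% of day 14 nuclei (0.450 to 0.962). They held 96.2%, 98.7%, 62.4% and 91.9% of the members' rule-gene UMIs in those libraries. Depth parted the groups differently in cells and nuclei. Sparse members were shallow in cells, with medians of 1790 and 4100.5 UMIs against 6634.5 and 7593 in pigment-rich ones. In nuclei they were deep, with medians of 13655 on day 13 and 8256 on day 14 against 4447.5 and 4148. Of the 134 day 13 members, 37 had 20000 UMIs or more and held 70.1% of all members' UMIs there. By this division 1 of these 37 was pigment-rich. Scrublet, which marks likely doublets, marked 8 of 134 members of day 13 and 13 of 56 of day 14, of which 0 and 3 were pigment-rich. It marked 1 of the 65 cells. Among all gated barcodes it marked 2.57% of plucked cells, 1.33% of in-skin cells, 4.72% of day 13 nuclei and 19.1% of day 14 nuclei.

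A few deep barcodes carried much of the pigment-rich sums. On day 14 the 3 pigment-rich nuclei that were marked by Scrublet or had 20000 UMIs or more held 37.9% of that group's UMIs, and 1 of them alone 28.1%. In in-skin cells 2 such members held 31.0%, on day 13 1 held 12.8%, and plucked cells had 0. Values are therefore also given without these 6 barcodes, called the deep or marked members, a choice made after the data were seen. This was done beside genes and lists that a result turns on, where a call changed or a called value moved by over 1.5 times. Shares over all genes include these members unless stated, so list counts without them have no matching share there.

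Rule-gene UMIs outside the members were counted in other gated barcodes that met the same kind of rule for keratinocyte genes. In these, 8.54% of plucked cells, 10.2% of in-skin cells, 37.7% of day 13 nuclei and 19.1% of day 14 nuclei carried at least 1 rule-gene UMI, at median depths of 9830, 10059, 3782 and 3854.5 UMIs. Members were left out here and in the groups that follow, so the pigment rule itself capped these values. They cannot part members from free RNA, and how much of these UMIs was free RNA was not tested. In fibroblast-rule barcodes the shares were 6.93%, 9.10%, 39.8% and 19.7%. A barcode could pass both rules, so these 2 groups overlap. Few barcodes met the leukocyte rule (14, 25, 60 and 49), and 28.6%, 32.0%, 56.7% and 24.5% of them had a rule-gene UMI. For the endothelial rule the shares were 3.67%, 11%, 43.7% and 20.8%. Levels are given as CPM, the UMIs of a gene per 1000000 UMIs other than mitochondrial and globin ones. All rule genes together stood at 38391, 44878, 8938 and 10778 CPM in pigment-rich members, at 1740, 1756, 463 and 481 CPM in sparse members, and at 10.7, 14.8, 106 and 51.4 CPM in the other gated barcodes (plucked cells, in-skin cells, day 13 and day 14 nuclei).

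Of the 451 barcode sequences that 2 libraries shared, 36 passed the gates of both and 0 were members. HINTW, a gene of the female W chromosome, had 660 UMIs in plucked day 12 members, 0 in in-skin members, 5086 in day 13 members and 569 in day 14 members. The totals behind these sums were unlike, at 208338, 209442, 2414810 and 532683 UMIs other than mitochondrial and globin ones. HINTW was found in 34 of 36, 0 of 29, 132 of 134 and 51 of 56 members. Any difference between plucked and in-skin feathers therefore lies between libraries that also differ in W-linked transcripts, and the sex of the embryos and the dissection cannot be told apart. The sex of the embryos is not given for days 13 and 14 either, so it cannot be told apart from age there. Days 13 and 14 differ from day 12 in using nuclei and, per the file headers, in the Cell Ranger version, so levels of day 12 and of the later days are given side by side only.

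PMEL was detected in each of the 94 pigment-rich members, at 19873 CPM in plucked cells, 21108 CPM in in-skin cells, 1994 CPM in day 13 nuclei and 1988 CPM in day 14 nuclei. The other gated barcodes held 4.53, 7.12, 55.2 and 23.8 CPM. Within the pigment-rich members PMEL UMIs ran from 4 to 384 (median 115.5) in plucked cells, from 11 to 937 (median 78) in in-skin cells, from 1 to 47 (median 13) on day 13 and from 1 to 28 (median 10) on day 14. MLANA followed the same division between preparations, with 11577 and 16413 CPM in the cells and 240 and 218 CPM in the nuclei. It was found in 17 of 18 and 19 of 19 cells but in 16 of 28 and 16 of 29 nuclei.

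TRPM1 was ordered the other way. It stood at 371 and 314 CPM in pigment-rich plucked and in-skin cells, against 3368 and 4171 CPM in day 13 and day 14 nuclei. Of the rule-gene UMIs of pigment-rich members, PMEL made up 51.8% and 47.0% in cells and TRPM1 0.965% and 0.700%, whereas in nuclei PMEL made up 22.3% and 18.4% and TRPM1 37.7% and 38.7%. The enzymes were closer to each other across preparations. TYRP1 reached 3362, 3938, 1284 and 1268 CPM, TYR 1039, 924, 553 and 1217 CPM, and DCT 371, 257, 371 and 346 CPM. EDNRB2 reached 1798, 1924, 1128 and 1569 CPM, and had at most 2.54 CPM in the other gated barcodes of any library. All 7 rule genes were thus measured in pigment-rich members of every library, and DCT had 0 UMIs in the sparse cells of both day 12 libraries.

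**Figure D2:**
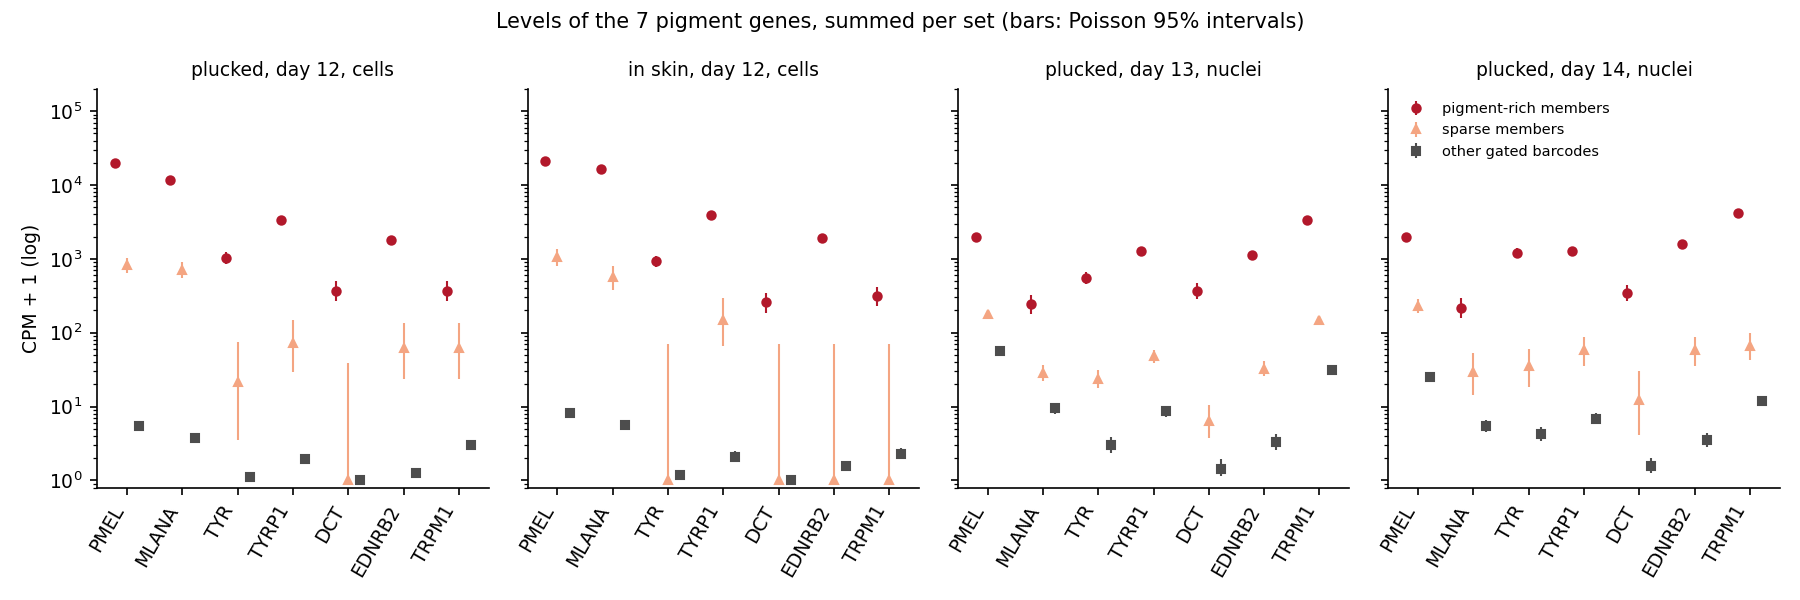
Level of each rule gene (CPM plus 1, log scale) in pigment-rich members, sparse members and other gated barcodes of each library, with 95% Poisson bars. PMEL at 19873 CPM leads in plucked pigment-rich cells and TRPM1 at 3368 CPM in day 13 pigment-rich nuclei.

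Genes were compared next, as log2 ratios of CPM plus 10, over those with at least 50 CPM in either group and at least 10 UMIs. Mitochondrial and globin genes were left out of the counts and shares over all genes. The rule genes were kept in them, although their values chose the members. A gene was called at a 2-fold difference. Over all members, 396 of 3865 genes were higher in plucked cells (10.2%) and 263 lower (6.8%), 348 of 3260 higher (10.7%) and 336 lower (10.3%) in in-skin cells, 22 of 4287 higher (0.513%) and 7 lower (0.163%) on day 13, and 175 of 3977 higher (4.4%) and 200 lower (5.03%) on day 14. In pigment-rich members the shares higher were 18.8%, 14.4%, 8.96% and 16.3%, and the shares lower 16.1%, 15.4%, 5.4% and 10.8%. The sums of 134 day 13 members thus differed little from the other nuclei, and the gene values below are those of the pigment-rich members unless stated. A gene that passed the minimum only through the group where it was high had to differ, so counts over genes are descriptions.

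The transcription factors that specify the lineage were present. SOX10, which switches on the melanocyte programme in neural crest cells, stood at 343 CPM in plucked cells, 244 CPM in in-skin cells, 110 CPM in day 13 nuclei and 173 CPM in day 14 nuclei, against 0.196, 2.23, 0.893 and 0.665 CPM in the other gated barcodes. The log2 ratios were 5.12 (4.61 to 5.58), 4.37 (3.84 to 4.87), 3.46 (2.75 to 4.09) and 4.10 (3.51 to 4.63). SOX10 UMIs were found in 11 of 18, 11 of 19, 13 of 28 and 17 of 29 pigment-rich members, with at most 9 in any of them.

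PAX3, the partner of SOX10 in activating MITF, was at 99.4 and 44.9 CPM in plucked and in-skin cells and at 439 and 642 CPM in day 13 and day 14 nuclei, against 0.059 to 2.24 CPM in the other barcodes. Either SOX10 or PAX3 was detected in 61.1% of pigment-rich plucked cells, 68.4% of in-skin cells, 89.3% of day 13 nuclei and 89.7% of day 14 nuclei. Among sparse members this held for 1 of 18, 0 of 10, 14 of 106 and 6 of 27, and among the other gated barcodes for 0.220%, 0.622%, 0.645% and 0.656%. So the 2 factors marked most pigment-rich members and few sparse ones, although neither gene was part of the rule.

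MITF, the regulator of the pigment genes, parted members from other barcodes less than SOX10 did. It stood at 651 and 244 CPM in plucked and in-skin cells against 154 and 51.3 CPM in the other barcodes, with log2 ratios of 2.01 (1.63 to 2.37) and 2.05 (1.52 to 2.54). In nuclei it stood at 929 and 704 CPM against 719 and 548 CPM, with ratios of 0.37 (0.12 to 0.60) and 0.35 (0.07 to 0.63), under the 2-fold line.

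SOX5, which tempers SOX10 activity in mouse melanocytes, was at 1337 and 2239 CPM in day 13 and day 14 nuclei, against 60.0 and 43.2 CPM in the others. ETS1, a neural crest factor, had ratios of 3.36, 2.54, 2.41 and 3.20 in plucked cells, in-skin cells, day 13 and day 14 nuclei. TBX2, a repressor in the lineage, had ratios of 2.47, 2.98 and 3.91 in plucked cells and in the nuclei and 0 UMIs in pigment-rich in-skin cells. TFAP2B ranged from 1.38 to 2.53, whereas TFAP2A stayed between 0.66 and 0.92, or reached 1.25 on day 14 without the deep or marked members. Of the 16 listed factors found, 12, 11, 12 and 13 were compared, with 7, 5, 7 and 7 called higher and 3, 2, 0 and 0 lower, and medians of 1.31, 0.86, 1.40 and 1.55 against medians over all genes of 0.11, 0.07, 0.03 and 0.14. ID1 was among the lower ones in cells, at -1.02 and -1.16, and was at -0.69 in in-skin cells without the deep members.

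Among receptors, KIT, through which KIT ligand keeps melanoblasts alive and migrating, was at 325 and 353 CPM in plucked and in-skin cells, against 1.12 and 0.803 CPM in the others. In nuclei it was at 251 CPM on day 13 and 1055 CPM on day 14, against 41.5 and 91.7 CPM. KIT was called higher in all 4 libraries, with ratios of 4.91 (4.38 to 5.41), 5.07 (4.63 to 5.47), 2.34 (1.82 to 2.83) and 3.39 (3.11 to 3.66). MC1R, the melanocortin receptor that sets the kind of melanin made, was at 217 and 154 CPM in plucked and in-skin cells and was found in 9 of 18 and 8 of 19 of them. Day 13 and day 14 nuclei had 1 MC1R UMI each. FZD4, a Wnt receptor, had ratios of 3.12 and 2.33 in the cells. EDNRB, the endothelin receptor of the lineage in mammals, had 1, 1, 3 and 0 UMIs, in contrast to EDNRB2. Of the 16 receptors, 8, 5, 9 and 8 were compared, with 3, 3, 1 and 1 higher and 3, 2, 0 and 1 lower, beside 18.8%, 14.4%, 8.96% and 16.3% of all genes higher and 16.1%, 15.4%, 5.4% and 10.8% lower. On day 14, 1 of 8 was higher and 5 lower without the deep or marked members. In in-skin cells 1 of 5 was then lower, and on day 13 1 of 9.

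Of the ligands that other skin cells present to melanocytes, few were abundant enough to compare. Of the 18 listed, 4, 3, 5 and 5 were compared in the 4 libraries, with 0 higher in each and 4, 3, 1 and 2 lower, and so few genes allow no reading against the shares over all genes. KITLG, the ligand of KIT, stood at 9.04, 0, 240 and 94.9 CPM against 202, 17.9, 520 and 134 CPM in the other barcodes. EFNB1, an ephrin that steers neural crest cells, had ratios of -2.39 and -2.08 in cells and of -0.46 and -0.51 in nuclei, but -1.73 on day 14 without the deep or marked members. All 46 KITLG UMIs of day 13 lay in 8 of the 28 nuclei and all 17 of day 14 in 1 of the 29. That nucleus was a deep or marked one, and without these members KITLG had 0 UMIs on day 14 and 45 on day 13, and 5 of 5 ligands were lower on day 14 and 0 of 5 on day 13.

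Genes of the melanosome form the longest list. Of the 28 found of 32 listed, 18, 11, 21 and 23 were compared in plucked cells, in-skin cells, day 13 and day 14 nuclei, with 14, 9, 10 and 14 higher and 0, 0, 0 and 2 lower, where all genes gave 18.8%, 14.4%, 8.96% and 16.3% higher. Their medians were 1.87, 2.26, 0.90 and 1.73. Without the deep members 7 of 9 compared genes were higher and 0 lower in in-skin cells. Over all members the same list had 8 of 14, 6 of 9, 3 of 17 and 6 of 18 genes higher.

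OCA2, which raises the pH of melanosomes, was among the highest genes in nuclei, at 1399 CPM on day 13 and 1636 CPM on day 14 against 7.96 and 9.07 CPM. It was found in 27 of 28 and 24 of 29 nuclei, and a single day 14 nucleus held 110 of the 293 UMIs. In cells it was at 81.3 and 19.2 CPM, from 9 and 3 UMIs. SLC24A4, an ion exchanger tied to pigmentation in humans, had ratios of 4.30, 2.57, 4.92 and 5.40, but 1 of its 8 in-skin UMIs remained without the deep members, for an in-skin ratio of 0.89. SLC24A5, an exchanger of the same family in melanosomes, had 2.54, 3.56, 3.05 and 2.69. SLC45A2, a transporter mutated in silver chickens, had 7 UMIs in plucked cells, 0 in in-skin cells and 12 and 16 in the nuclei. GPR143, a receptor on melanosomes, had ratios of 4.08, 3.52, 3.44 and 2.41, with 2.92 in in-skin cells and 3.01 on day 14 without the deep or marked members. Each of these transporters and receptors was called or counted in members of at least 3 libraries, with SLC45A2 resting on the fewest UMIs.

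GPNMB, a glycoprotein related to PMEL, was the most abundant of the listed melanosome genes by UMIs in cells. It stood at 8215 and 3470 CPM in plucked and in-skin cells against 1122 and 206 CPM in the others, and at 1123 and 1122 CPM in the nuclei against 335 and 239 CPM. BACE2, a protease that cuts PMEL, had ratios of 2.37, 1.77, 4.01 and 4.49 in plucked cells, in-skin cells, day 13 and day 14 nuclei. Transport of melanosomes along actin rests on RAB27A, MLPH and MYO5A, which form 1 complex. MLPH was higher in all 4 libraries, at 154, 51.3, 548 and 821 CPM against 22.8, 1.83, 57.7 and 25.6 CPM. RAB27A was higher in plucked and in-skin cells (1.89 and 2.18) and on day 14 (1.04), and stood at 0.04 on day 13. MYO5A had ratios of 1.49, 0.26, 0.90 and 1.88, and 1.02 on day 13 without the deep member. RAB38, which delivers enzymes to melanosomes, had 4.07 in plucked cells and 1.96 and 2.14 in the nuclei, and in in-skin cells 3 UMIs against 0 in the other barcodes. The 3 genes of the complex thus did not run alike across libraries.

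**Figure D3:**
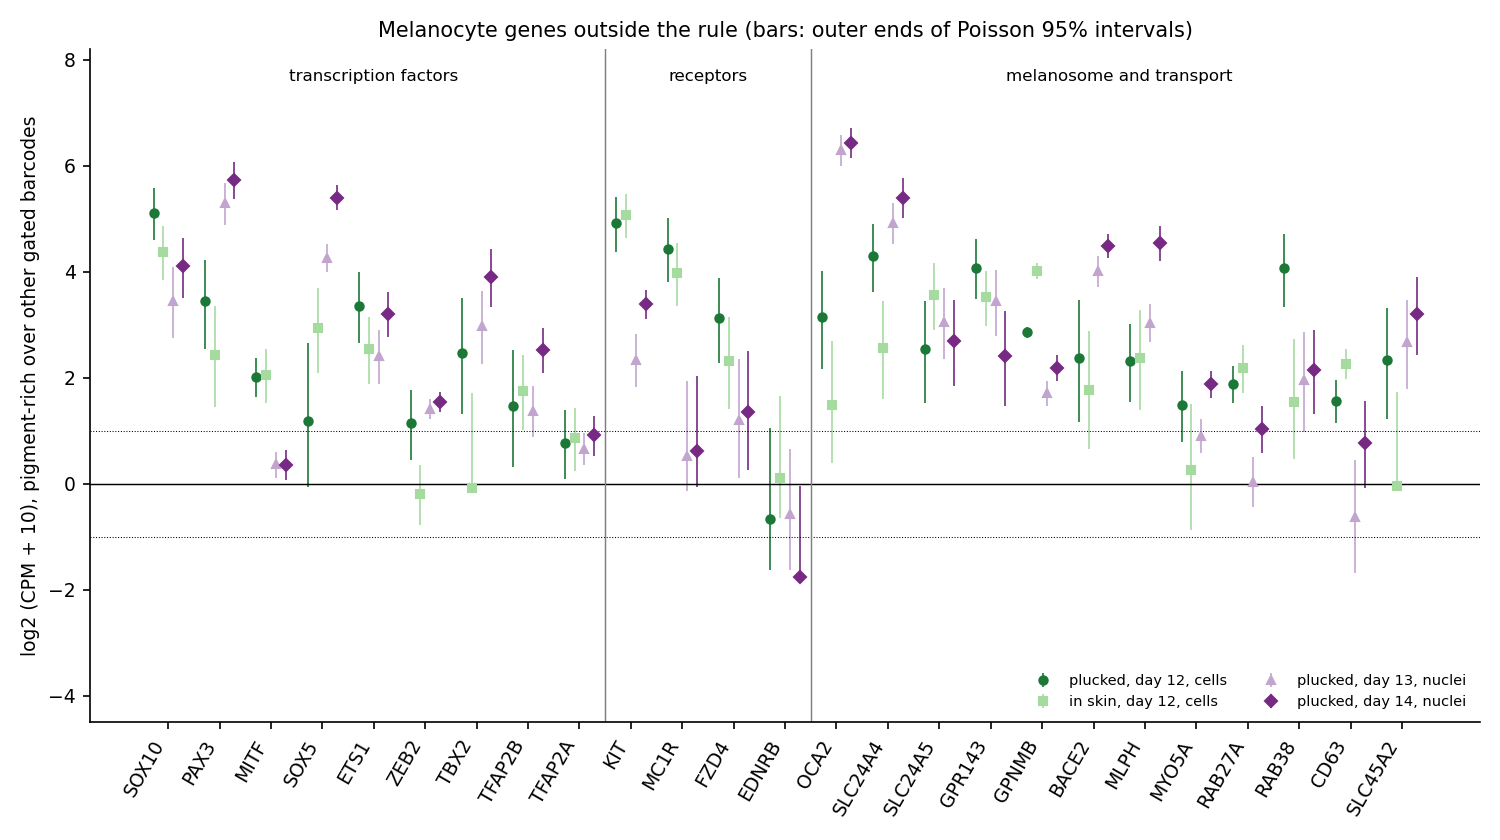
Log2 ratio of CPM plus 10 in pigment-rich members over the other gated barcodes (y axis) for transcription factors, receptors and melanosome genes that the rule did not use (x axis), with 95% Poisson bars and 1 symbol per library; dotted lines mark 2-fold. SOX10 and KIT lie above the upper line in all 4 libraries, and MITF does so in the 2 libraries of cells, at 2.01 and 2.05.

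Markers of other cell types were read over whole lists. Keratinocyte markers (9 of 11 found) summed to 615, 89.8, 1561 and 966 CPM in pigment-rich members, 5999, 2989, 2365 and 1742 CPM in sparse members and 6969, 4245, 2441 and 1705 CPM in the other gated barcodes. Of those compared, 7 of 7 and 6 of 6 were lower in pigment-rich plucked and in-skin cells, and 0 of 6 and 2 of 6 in day 13 and day 14 nuclei. Over all genes 16.1%, 15.4%, 5.4% and 10.8% were lower. On day 14 the sum was 541 CPM and 5 of 6 were lower without the deep or marked members. Pigment-rich cells thus held fewer keratinocyte transcripts than the cells around them, and so did the remaining day 14 nuclei. Fibroblast markers (9 of 9 found) summed to 199, 167, 1076 and 1055 CPM in pigment-rich members against 1337, 8328, 1411 and 1106 CPM in the other gated barcodes. Of those compared, 4 of 5, 8 of 8, 3 of 8 and 1 of 8 were lower, beside the same shares over all genes, and 1 was higher on day 14. The 2 of 6 keratinocyte and 1 of 8 fibroblast genes of day 14 are too few to read against that share. Without the deep or marked members the day 14 sum was 758 CPM, with 5 of 8 lower and 1 higher. The 10 sparse in-skin cells held 24249 CPM of fibroblast markers, and COL1A1 in these sparse cells was at 13563 CPM.

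By the same kind of rule, the keratinocyte gate was passed by 4 of 18, 2 of 19, 15 of 28 and 8 of 29 pigment-rich members and by 10 of 18, 4 of 10, 103 of 106 and 22 of 27 sparse members. Among the other gated barcodes 83.4%, 53.8%, 86.3% and 59.3% passed it. The part of mixed barcodes and free RNA in the values of sparse members was not tested. Glial markers were read because glia share the neural crest origin. Of the 4, 5, 3 and 3 glial genes compared in the 4 libraries, 2, 1, 1 and 1 were higher and 2, 2, 1 and 0 lower. So few genes allow no reading against the shares over all genes. On day 14, 2 of 3 were higher without the deep or marked members. MBP, a myelin gene, was higher in all 4 pigment-rich groups, at 145, 135, 360 and 609 CPM against 14.3, 18.0, 44.4 and 49.4 CPM. Of the neuron markers compared, 0 of 1, 1 of 1, 0 of 2 and 1 of 2 were higher, again too few to read against the shares over all genes. TUBB3, a tubulin of neurons and neural crest cells, was at 940 and 885 CPM in plucked and in-skin cells against 485 and 137 CPM, with ratios of 0.94 and 2.61. Of the skeletal muscle list 1 gene was compared in each library, PAX7 in 3 of them (higher) and another gene in in-skin cells (lower, at -3.24). PAX7, listed for skeletal muscle and known as a neural crest factor in birds, was at 54.2, 19.2, 104 and 218 CPM against at most 0.326 CPM, while the list summed to 25.7 against 152 CPM in in-skin cells.

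The remaining lists were read as sums. Mural markers stood at 9.04, 103, 15.7 and 83.8 CPM in pigment-rich members against 96.2, 1370, 137 and 131 CPM in the other barcodes. Endothelial markers stood at 0, 6.41, 439 and 274 CPM against 77.7, 66.3, 356 and 298 CPM. Leukocyte markers stood at 81.3, 128, 146 and 33.5 CPM against 13.8, 33.2, 94.4 and 72.7 CPM, higher in pigment-rich members of 3 libraries. Of the 8 leukocyte genes found, 7, 6, 1 and 4 had 0 UMIs in pigment-rich members, and 1, 1, 1 and 0 were compared. These sums thus rest on few genes. Globin genes summed to 1636, 64.1, 40906 and 41184 CPM against 459, 311, 52758 and 52567 CPM. Both groups had to pass the same globin limit, which capped these values, so the levels of nuclei allow no reading. In plucked cells, 1 pigment-rich cell alone held 77 UMIs of the globin gene HBBA.

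**Figure D4:**
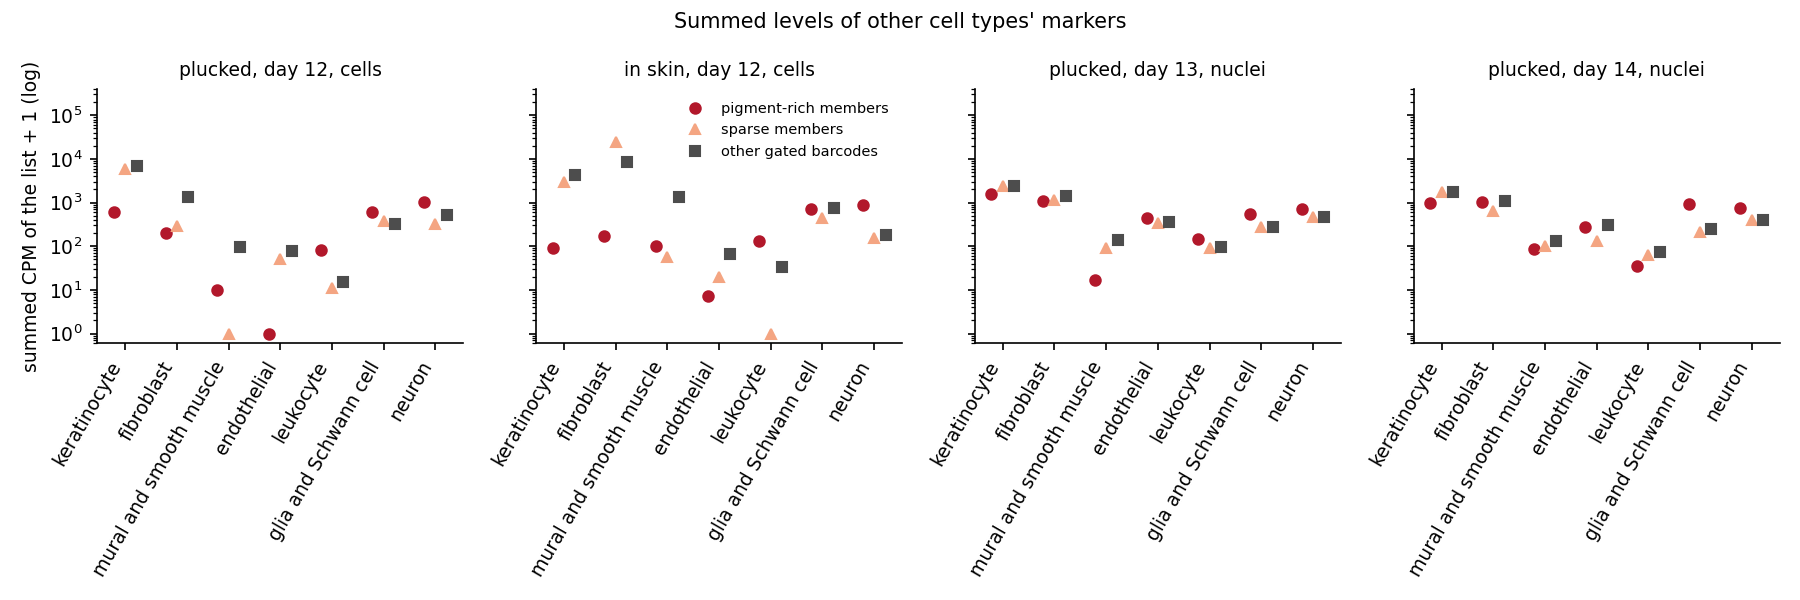
Summed CPM plus 1 (log scale) of the marker lists of 7 other cell types in pigment-rich members, sparse members and other gated barcodes of each library. Keratinocyte markers stand at 89.8 CPM in pigment-rich in-skin cells and at 4245 CPM in the other in-skin barcodes.

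Outside the lists, genes were named by the ratio of all members in the library where it was smallest. In all 4 libraries, 9 of 1412 genes were called higher over all members (0.637%) and 0 lower. Of these, EDNRB2, TRPM1, TYRP1, TYR and PMEL were rule genes, which chose the members, and the others were CNTN1, GPM6B, HPGDS and TRIM2. CNTN1, a cell adhesion molecule of axons, stood at 271, 167, 830 and 1480 CPM in pigment-rich members against 3.17, 3.66, 19.9 and 15.8 CPM in the other barcodes. GPM6B, a membrane glycoprotein, stood at 786, 455, 658 and 1106 CPM against 17.2, 64.9, 39.6 and 59.2 CPM. HPGDS, the enzyme that makes prostaglandin D2, stood at 1500, 423, 642 and 698 CPM against 61.1, 12.4, 52.5 and 18.1 CPM. TRIM2, a ubiquitin ligase, had pigment-rich ratios of 4.28, 3.80, 3.68 and 3.53. The day 14 ratios were 4.12 for TRIM2 and 6.48 for CNTN1 without the deep or marked members. The 4 genes were detected in 9 to 16 of the pigment-rich cells of a library and in 19 to 27 of the nuclei.

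The next genes by that rule were ZNF704, DIP2C, MBP, DUSP10, ETS1, NADK, RAB20, ATP6AP1, PSMD4, SLC23A2 and CTSA, with smallest ratios from 0.82 to 0.51. At the low end of the same rule were EZR, ALCAM, SCEL, EPCAM, AFDN, MYH10, DOCK9, HIC2, CDH11 and TPM1. TPM1, a tropomyosin, was at 36.1, 44.9, 104 and 78.2 CPM in pigment-rich members against 883, 695, 237 and 244 CPM in the other barcodes, with a day 14 ratio of -2.46 without the deep or marked members.

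With the pigment-rich members alone, 101 of 1621 genes were higher in all 4 libraries (6.23%) and 15 lower (0.925%), and 106 higher and 34 lower without the deep or marked members. The 101 held all 9 genes above and the other 2 rule genes, and the following were picked from them after their values were seen. CDKN2A, the cell-cycle inhibitor at the sex-linked barring locus of chickens, stood at 967 CPM in plucked cells and 1988 CPM in in-skin cells, against 0.431 and 0.778 CPM in the other barcodes. In nuclei it was at 57.4 and 55.8 CPM against 1.12 and 1.15 CPM. It was found in 16 of 18 and 18 of 19 cells and in 10 of 28 and 7 of 29 nuclei, and 1 in-skin cell held 79 UMIs of it.

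ATP6AP1, an accessory subunit of the proton pump of acidic organelles, stood at 967, 789, 371 and 424 CPM against 34.9, 35.6, 53.1 and 47.9 CPM. ATP6V1C2, a subunit of that pump, had ratios of 3.65, 3.04, 2.95 and 3.65, and 1.86 in in-skin cells without the deep members. CLCN7 and OSTM1, which together form a chloride and proton exchanger of lysosomes, had ratios of 2.12, 2.28, 2.02 and 2.37 and of 2.75, 3.41, 1.64 and 2.82, OSTM1 being at 2.81 in in-skin cells without the deep members. CTSK, a lysosomal protease, stood at 822, 680, 131 and 184 CPM against 27.1, 97.0, 14.2 and 10.2 CPM. SQSTM1, an autophagy receptor, stood at 2802 and 1860 CPM in cells and at 94.0 and 128 CPM in nuclei against 78.7, 42.5, 11.8 and 24.2 CPM. SLC38A11, a member of an amino acid transporter family, stood at 181, 115, 298 and 162 CPM against at most 1.12 CPM. The day 14 ratios of CTSK, SQSTM1 and SLC38A11 were 3.93, 2.67 and 4.65 without the deep or marked members. These 7 genes, picked for being higher in pigment-rich members of all 4 libraries, were not among the 9 called so over all members.

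The highest genes of each preparation were listed as well, again after their values were seen, and several of them were higher in all 4 libraries. In cells, 193 of 2805 genes were higher over all members in both libraries (6.88%) and 104 lower (3.71%), and over pigment-rich members 309 of 2954 (10.5%) and 274 (9.28%). APOH, a phospholipid-binding plasma protein, was at 533 and 1013 CPM in plucked and in-skin pigment-rich cells against 0.078 and 0.226 CPM. TSPAN10, a tetraspanin, was at 470 and 321 CPM against 0.157 and 0.125 CPM, and GJA5, a gap junction protein that was higher in all 4 libraries, at 904 and 564 CPM against 4.04 and 1.08 CPM. The lowest in both were COL1A1, DCN and COL3A1, with KRT17 and KRT14 among the next.

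In nuclei, 22 of 3600 genes were higher over all members on both days (0.611%) and 2 lower (0.0556%), and over pigment-rich members 312 of 4090 (7.63%) and 101 (2.47%). Outside the rule genes the list was led by OCA2, PAX3, SLC24A4, NLGN4Y, CNTN1, ANK2, IGSF11, SOX5 and PTPN5. NLGN4Y, a neuroligin, was at 543 and 396 CPM in day 13 and day 14 nuclei against 8.11 and 3.81 CPM, and IGSF11, an adhesion molecule needed for pigment cell patterning in zebrafish, at 318 and 436 CPM against 4.32 and 7.14 CPM. The rule genes PMEL, TYRP1, EDNRB2, TYR and TRPM1 were among the 15 highest of both preparations, but they chose and divided the members, so this is a description. CNTN1 and SLC24A4 were called in the cells too, SLC24A4 in in-skin cells only with the deep members. IGSF11 had a day 14 ratio of 5.29 without the deep or marked members.

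Plucked feathers were set against feathers in skin at day 12, which addresses whether melanocyte-lineage cells inside the feather differ from those of feathers together with the epidermis around them. The rule genes chose and divided the members, so their values are a description. In pigment-rich plucked and in-skin cells the log2 ratio of PMEL was -0.09 (-0.20 to 0.02), that of TYRP1 -0.23 (-0.49 to 0.03), that of TYR 0.17 (-0.34 to 0.67), that of DCT 0.51 (-0.38 to 1.41), that of EDNRB2 -0.10 (-0.47 to 0.27) and that of TRPM1 0.23 (-0.62 to 1.08). MLANA was at 11577 CPM in plucked against 16413 CPM in in-skin cells, or -0.50 (-0.64 to -0.37). Of the 7 rule genes, 0 passed 2-fold in either direction, over all members as well, although DCT was at 1.12 without the 2 deep in-skin members. KIT, at 325 CPM in plucked and 353 CPM in in-skin cells, had a ratio of -0.11 (-0.98 to 0.74), and SOX10 had 0.48 (-0.45 to 1.40).

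Across the transcriptome, 541 of 3250 genes were higher (16.6%) and 175 lower (5.38%) in plucked than in in-skin members, compared where a gene had 50 CPM in either group and 20 UMIs. With TMM scaling, which sets the bulk of genes level, the split was 353 higher and 363 lower, and the median ratio was -0.16 in place of 0.12, so a ratio near 2-fold is called on 1 scaling only. Among pigment-rich members 329 of 2105 were higher (15.6%) and 113 lower (5.37%), with a median of 0.09. The other gated barcodes of these libraries showed a like split, 595 higher (16.7%) and 185 lower (5.2%) of 3559 with a median of 0.21, so their ratio is given beside each gene.

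MITF stood at 651 CPM in plucked pigment-rich cells against 244 CPM in in-skin ones, a ratio of 1.38 (0.59 to 2.18), and at 1.42 in the other barcodes. GPNMB stood at 8215 against 3470 CPM, a ratio of 1.24 (1.02 to 1.46), and at 2.39 in the others. RAB27A had 1.09 (0.37 to 1.83), and 1.39 in the others. For these 3 genes the barcodes outside the lineage were apart in the same direction and by as much or more. RAB38 had 18 against 3 UMIs and a ratio of 2.56 (0.68 to 4.26), with 0.04 in the others. SLC24A4 had 21 against 8 UMIs and 1.70 (0.20 to 3.22), with -0.02 in the others, and 21 against 1 UMI without the deep in-skin members. ITGA6, an integrin subunit, had 31 against 5 UMIs and 2.79 (1.24 to 4.32), with 0.68 in the others. List genes were compared if they met the minimums over all members. The shares over all genes beside them are of the 2105 genes that met the minimums in pigment-rich cells, an unlike set. Of 28 melanosome genes, 14 were compared, and 7 were higher and 0 lower in pigment-rich plucked cells, beside 15.6% and 5.37% of all genes. Without the 2 deep in-skin members 8 were higher and 1 lower, beside 288 and 133 of 1792 genes. Of 7 keratinocyte genes compared, 5 were higher and 0 lower, or 4 and 0 without those 2 members. Their median over all pigment-rich cells was 1.33 against 0.94 for the melanosome genes. The part of keratinocyte transcripts in the result was not tested. Globin also moved with the plucked library, since HBBA was at 768 CPM in pigment-rich plucked against 19.2 CPM in in-skin cells, with 77 of its 85 UMIs in 1 cell.

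Of the genes with the largest differences, HINTW came first, with 660 UMIs in plucked and 0 in in-skin members, at least 221-fold higher when 3 UMIs stand in for the 0. Those that followed over all members were epithelial, such as ABCA12, PPL, SFN and DSP, and those at the low end were collagens with POSTN, PRRX1 and CRABP-I. COL1A1 had 1 UMI in plucked and 737 in in-skin members, and with a ratio of -7.90 (-8.55 to -6.48) it was the lowest gene. In pigment-rich cells it had 0 UMIs in plucked and 11 in in-skin cells, a ratio of -3.01, with -3.26 in the other barcodes. Most of its in-skin UMIs were thus in sparse members, but it was lower in pigment-rich plucked cells too. EDQM3, an epidermal differentiation gene, had 413 UMIs in 8 plucked members against 1 in-skin UMI. CALB2 had 104 UMIs in 1 in-skin member.

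In pigment-rich cells alone, TJP1, a tight junction protein, was at 669 CPM in plucked against 64.1 CPM in in-skin cells, a ratio of 3.19 (2.06 to 4.38), with 2.23 in the other barcodes. CAMSAP2, USP24, ASH1L, KIAA1217, CREB3L2 and GJA1 had ratios from 3.06 to 2.90. CREB3L2, a transcription factor of the secretory pathway, had 18 against 2 UMIs and -0.73 in the other barcodes, and KIAA1217 40 against 6 UMIs and 0.69. At the low end, DLX2, a homeobox factor, had 4 against 33 UMIs and a ratio of -2.26 (-3.95 to -0.60), with 0.04 in the others. FABP7, a lipid-binding protein of glial precursors, had 2 against 23 UMIs and -2.49 (-4.25 to -0.46), with -2.25 in the others.

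**Figure D5:**
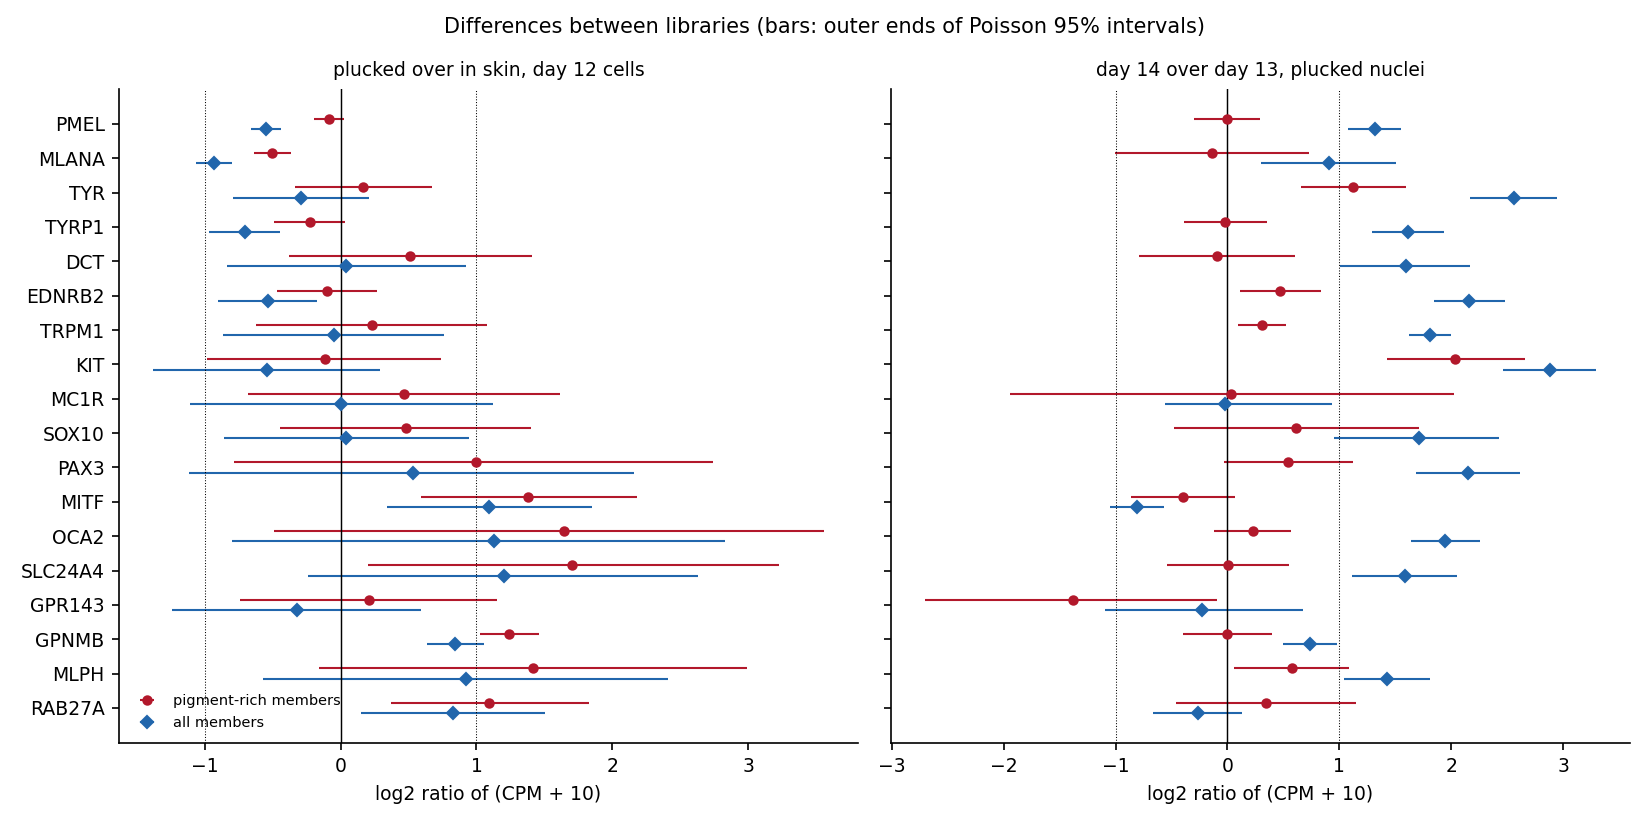
Log2 ratio of plucked over in-skin members at day 12 (left) and of day 14 over day 13 members (right) for the rule genes and for genes of the lineage, in pigment-rich members (red) and all members (blue), with 95% Poisson bars. In pigment-rich nuclei TYR and KIT lie right of the 2-fold line at 1.12 and 2.03, while PMEL lies at -0.00.

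Day 14 was set against day 13 for the change with age within nuclei. Over all members 6 of 7 rule genes were called higher on day 14, from 1.31 for PMEL to 2.56 for TYR, with MLANA at 0.91. The share of sparse members differed between the days (27 of 56 on day 14 and 106 of 134 on day 13), and in pigment-rich nuclei 1 of the 7 was higher. TYR was at 1217 CPM on day 14 against 553 CPM on day 13, a ratio of 1.12 (0.66 to 1.60). It was detected in 28 of 29 day 14 and 25 of 28 day 13 nuclei, with medians of 5 and 3 UMIs. PMEL had -0.00 (-0.30 to 0.29), TYRP1 -0.02 (-0.39 to 0.35), DCT -0.10 (-0.79 to 0.60), MLANA -0.14 (-1.003 to 0.73), TRPM1 0.31 (0.09 to 0.52) and EDNRB2 0.47 (0.11 to 0.84). These genes chose and divided the members, so their ratios are a description. Without the deep or marked members they ran from 0.31 for MLANA to 0.91 for EDNRB2, with TYR at 1.40 and PMEL at 0.42.

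KIT was the receptor called higher on day 14, while PDGFRA and ERBB3 were called lower, of 9 compared. It was at 1055 CPM in pigment-rich nuclei of day 14 against 251 CPM on day 13, a ratio of 2.03 (1.43 to 2.66), and was found in 22 of 29 against 18 of 28 nuclei. The median nucleus held 5 KIT UMIs on day 14 and 1 on day 13, and the highest 30 and 8. Without the deep or marked members the KIT ratio was 2.48, from 162 against 42 UMIs, and 5 receptors were lower, ERBB3 being at -0.65. The other gated nuclei were apart in the same direction with a ratio of 0.98, at 91.7 against 41.5 CPM, and whether the 2 ratios differ was not tested. KITLG was lower on day 14, at 94.9 against 240 CPM in pigment-rich nuclei, a ratio of -1.25 (-2.34 to -0.20), with -1.88 in the others, and at 0 against 45 UMIs without the deep or marked members.

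BACE2 had a ratio of 0.83 (0.47 to 1.19), MYO5A 0.81 (0.31 to 1.30), SOX5 0.74 (0.42 to 1.06) and MLPH 0.57 (0.06 to 1.09), each short of 2-fold. Without the deep or marked members BACE2 was at 1.21, MYO5A at 1.11, SOX5 at 1.09 and MLPH at 0.92. SLC24A4 had 0.00 (-0.54 to 0.55), OCA2 0.22 (-0.12 to 0.57), GPNMB -0.00 (-0.40 to 0.40) and MITF -0.40 (-0.87 to 0.07). Of the 19 melanosome genes compared, CD63 was higher, from 13 against 5 UMIs, and SYTL2 and BLOC1S5 were lower, from 4 against 15 and 11 against 29 UMIs, while 4 were higher and 2 lower without those members. GPR143 was left out for being below the 50 CPM required over all members, although pigment-rich nuclei held 10 UMIs of it on day 14 against 31 on day 13. The minimum of 20 UMIs was met. The list genes compared here met these minimums over all members. The shares of all genes given below are of the 3976 genes that met them in pigment-rich nuclei, an unlike set. Of the 13 transcription factors compared, 0 passed 2-fold in pigment-rich nuclei, but 3 were higher, among them SOX10 at 1.22, and 1 lower without those members. Of the 9 adhesion genes compared, 0 were higher and 4 lower, beside 4.85% and 8.17% of all genes. Without the deep or marked members 5 were lower, where 491 of 3163 genes were lower. The 4 were NRCAM, ALCAM, CADM1 and CDH11, with ratios from -1.14 to -2.05 and from -0.13 to -1.26 in the other nuclei. CENPF, a protein of dividing cells, had 7 against 45 UMIs and -2.32 (-3.66 to -1.002), with -1.16 in the others. All 7 UMIs were in the deep or marked members, and ALCAM was at -2.75 without them.

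Over all genes, 233 of 4474 were higher (5.21%) and 661 lower (14.8%) in day 14 than in day 13 members, with a median ratio of -0.43. TMM scaling moved the median to -0.07 and the split to 421 higher and 264 lower. In pigment-rich nuclei 193 of 3976 were higher (4.85%) and 325 lower (8.17%) with a median of -0.13. Without the deep or marked members 216 of 3163 were higher and 491 lower. In the other gated nuclei 117 of 4227 were higher (2.77%) and 107 lower (2.53%), with a median of -0.26.

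KRTAP10-4, a keratin-associated gene, had the largest ratio in pigment-rich nuclei. It was at 1541 CPM in pigment-rich nuclei of day 14 against 15.7 CPM on day 13, a ratio of 5.92 (4.62 to 7.04), and at 1001 CPM with a ratio of 5.17 without the deep or marked members. F-KER, a feather keratin, was at 1748 against 188 CPM, a ratio of 3.15 (2.54 to 3.79). The other gated nuclei had 5.77 and 2.49 for the same genes, and their levels of 3799 and 4924 CPM on day 14 were above those of the pigment-rich nuclei. The highest single nucleus held 137 of the 276 KRTAP10-4 UMIs of day 14, and the highest for F-KER held 139 of 313. The part of free RNA and mixed barcodes in these values was not tested.

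The other 8 of the 10 highest were MAT1A (4.10, from 29 against 0 UMIs), S100A12 (3.93), EDMTFH (3.13), DSCAM (2.99), ANO1 (2.77), ELAPOR2 (2.57), DPYSL3 and MAP1B. In the other nuclei MAT1A was at 2.05, S100A12 at 2.71, EDMTFH at 2.07 and ANO1 at 2.49, and DSCAM at -0.98 with its 42 UMIs in 3 nuclei. With the deep or marked members left out, ANO1 had 5 against 4 UMIs (0.69, under the 2-fold line) and MAT1A 10 against 0. DPYSL3 and MAP1B, cytoskeletal proteins of growing axons, had 23 against 3 and 22 against 3 UMIs, with ratios of 2.43 (0.71 to 3.94) and 2.37 (0.64 to 3.89) and -0.11 for both in the other nuclei. ELAPOR2 had 20 against 2 UMIs, in 13 and 2 nuclei, and -0.53 in the others. At the low end, ZNF804B had its 39 day 13 UMIs in 1 nucleus. HS3ST5 had 0 UMIs on day 14 against 26 on day 13, TRPM3 3 against 59 and HHIP 2 against 42, with -1.83, -1.68 and -1.88 in the other nuclei. Without the deep or marked members ZNF804B had 0 UMIs on both days, TRPM3 0 against 51 and HHIP 0 against 13. HHIP, which binds hedgehog proteins, was thus lower on day 14 in nuclei of both groups.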

How the data were processed

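The deposited values are raw UMI counts per gene and barcode for 16878 gene entries, 4436 of them without a symbol. Cell Ranger produced the counts, in version 3.1.0 for day 12 cells and 7.0.0 for nuclei per the file headers. The submitters' processing notes name 7.0.0 and the build GRCg6a. The annotation and the treatment of intronic reads are not given in the sources used here. Libraries held 56504070 to 72385294 UMIs. Of the deposited barcodes, 4737, 3410, 2464 and 1205 exceeded the mitochondrial limit (13 genes) and 271, 252, 19396 and 20696 reached the globin limit (7 genes) in plucked day 12, in-skin day 12, day 13 and day 14. Doublets were marked with Scrublet (scanpy 1.11.5, 0.8% expected per 1000 barcodes) and kept, their removal being an alternative.

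UMIs were summed per library over members and over the other gated barcodes and scaled to 1000000 UMIs other than mitochondrial and globin ones. Ratios are log2 of CPM plus 10, which understates changes of low genes. Poisson intervals of sums and Clopper-Pearson intervals of shares are exact, at 95%, and a ratio's interval joins the outer ends of both sums' intervals. The calls were run on Poisson counts drawn from the summed UMIs, with known changes planted. Such counts hold no spread between barcodes, embryos or libraries, so this check covers counting error only. Python 3.11.15, numpy 2.4.6, scipy 1.17.1, pandas 2.3.3 and matplotlib 3.10.9 were used. No genome was used, so no coordinates or sequences are given.

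The members and the 19 gene lists (247 genes, 26 of them not found by symbol) were chosen with earlier results of these data known. Named genes were the 7 rule genes, listed genes with at least 10 UMIs in members, the 20 with the highest smallest-library ratio and the 10 with the lowest largest-library ratio of members over others, and the 10 highest and 10 lowest between libraries. The pigment-rich group, its gene lists and the left-out barcodes of 20000 UMIs or more, or marked by Scrublet within that group, were added after the data were seen.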

Additional observations from a re-analysis of the deposited data

How the results depend on the processing

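No paired analysis was possible because each group has 1 library, and for the same reason no replicate could be left out. Over the answers to the comparisons, 102 of 156 recomputed values stayed close to the stated one and 54 moved. Among named genes 850 of 1220 stayed close, 360 moved and 10 changed sign. A close count of called genes need not hold the same genes. Between day 14 and day 13, 215 genes were higher after thinning against the 233 stated, and 69 were shared. For pigment-rich members 193 were higher, and 66 were shared with the 233. With a mitochondrial limit of 5%, 242 were higher and 224 shared. The share of members in plucked day 12 cells was 0.403% with 3 genes required, 0.337% after thinning, 0.329% of deposited barcodes and 0.302% for pigment-rich members; in in-skin cells it was 0.347% after thinning, 0.329% of deposited barcodes and 0.367% for pigment-rich members. On day 13 it was 1.76% with no globin limit, 10.05% with a limit of 5%, 2.60% with 5 UMIs, 2.67% with 3 genes, 2.80% with the 5 label markers alone, 0.960% after thinning, 0.591% of deposited barcodes, 0.958% for pigment-rich members and 3.44% without barcodes of 20000 UMIs or more. On day 14 it was 0.530%, 2.02% and 0.925% under the first 3 of these, 0.719% after thinning, 0.223% of deposited barcodes and 0.671% for pigment-rich members. Pigment-rich members without those marked by Scrublet or of 20000 UMIs or more made up 0.302% of plucked day 12, 0.329% of in-skin, 0.923% of day 13 and 0.602% of day 14 barcodes.

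Genes higher in all 4 libraries numbered 14 with no globin limit, 26 with no minimum CPM, 30 from the mean of each barcode's own CPM, 101 for pigment-rich members, 24 without the deepest barcodes and 106 for pigment-rich members that were neither deep nor marked. Genes lower in all 4 numbered 1 with no globin limit, 15 for pigment-rich members, 2 without the deepest barcodes and 34 for pigment-rich members neither deep nor marked. Between plucked and in-skin members, genes higher numbered 253 with a pseudocount of 50 CPM, 353 with TMM, 329 for pigment-rich members and 288 for those neither deep nor marked, and genes lower 68, 363 and 113 under the first 3 of these and 343 from each barcode's own CPM. Between day 14 and day 13, genes higher numbered 415 without Scrublet-marked barcodes, 134 with a pseudocount of 50 CPM and 421 with TMM, and genes lower 1338, 249 and 264, with 407 after thinning, 1009 with no minimum CPM, 325 for pigment-rich members and 1122 without the deepest barcodes. The causes were not tested.

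Signs changed for TRIM2 (-0.16), PSMD4 (-0.45), MYH10 (0.16) and HIC2 (0.038) with no globin limit, for CALB2 with 5 UMIs (0.69), 3 genes (0.74) and pigment-rich members (0.93, also without the deep or marked ones), for CPED1 after thinning (0.089) and for AFDN with each barcode's own CPM (0.52). Gene ratios were not run where fewer than 20 members remained: with a mitochondrial limit of 5% or after thinning in day 12 cells, and without members that passed another cell type's rule in any library. In pigment-rich cells many listed genes rest on under 20 UMIs.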

Other observations

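Genes that respond to tissue dissociation were lower in pigment-rich cells than in the other cells of day 12. FOS, an immediate early gene, was at 199 and 160 CPM in plucked and in-skin pigment-rich cells against 952 and 1247 CPM in the others, with log2 ratios of -2.20 (-2.85 to -1.62) and -2.88 (-3.48 to -2.34). EGR1, of the same kind, had -3.35 and -2.93, the phosphatase DUSP1 -3.18 and -2.88, and BTG2, an inhibitor of proliferation, -2.53 and -3.36. Of the genes of this list compared, 4 of 7 in plucked and 5 of 6 in in-skin cells were lower, against 16.1% and 15.4% of all genes. In nuclei FOS had 2 UMIs on each day, with ratios of 0.36 and 0.42. The list held a gene that went the other way, since HSPA8, a chaperone, was at 3308 CPM in plucked pigment-rich cells against 1600 CPM in the others.

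Cell division and stress genes were mostly level. Of the 19 replication and mitosis genes found, 13, 15, 5 and 2 were compared in plucked cells, in-skin cells, day 13 and day 14 nuclei, with 0, 0, 1 and 1 higher and 1, 3, 0 and 0 lower in pigment-rich members. TOP2A, a topoisomerase of dividing cells, had ratios of -0.16, -0.16, 0.14 and 0.19. Of the endoplasmic reticulum stress genes compared, 3 of 11, 0 of 11, 1 of 9 and 1 of 9 were higher and 1, 2, 0 and 0 lower. Of the survival genes 3 of 6, 2 of 5, 1 of 3 and 1 of 2 were higher and 1, 0, 0 and 0 lower. Of the adhesion genes 2 of 7, 2 of 6, 1 of 10 and 1 of 10 were higher and 3, 2, 0 and 2 lower. Among all genes 18.8%, 14.4%, 8.96% and 16.3% were higher and 16.1%, 15.4%, 5.4% and 10.8% lower. Without the deep or marked pigment-rich members 3 of 10 stress genes were higher on day 14. Of adhesion genes there, 3 of 10 were higher and 4 lower, and of replication and mitosis genes 0 of 2 were higher and 1 lower. In in-skin cells 3 of 6 adhesion genes were then lower, and 1 of 16 replication and mitosis genes was higher. On day 13, 2 of 10 adhesion genes were then higher and 2 lower. Among survival genes, BAK1, which promotes cell death, had 2.41 and 1.88 in plucked and in-skin cells, from 13 UMIs in each, and CDKN1A, a cell-cycle inhibitor, 2.23 and 1.95, or 1.25 in in-skin cells without the deep members. HSPA5, the chaperone of the endoplasmic reticulum, had 0.19, -1.25, -0.35 and 0.42, and ATF3, a stress-induced factor, 1.70, -0.34, 1.90 and 2.62, with 3.27 on day 14 without the deep or marked members. CDH2, a cadherin of migrating neural crest cells, was higher in all 4 libraries, with ratios of 1.60, 2.34, 1.69 and 2.80, while CDH1, the cadherin of epithelium, had -1.05, -0.63, -0.46 and -0.62, with -1.05 in in-skin cells and -1.45 on day 14 without them.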
